A study of Mus musculus with 8 samples.

Results

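The phospholipases A2 examined here are 10 mouse genes, out of 55276 gene symbols in the count table. Pla2g2f, Pla2g3 and Pla2g12a encode secreted enzymes, Pla2g4a, Pla2g4b, Pla2g4d, Pla2g4e and Pla2g4f encode cytosolic enzymes of group IV, Pla2g6 encodes the calcium-independent enzyme and Pla2g15 the lysosomal one. The group was chosen from the measured values themselves, because the counts of Pla2g3 in the Cyto-ID High libraries stood among the strongest rises over the Cyto-ID Low libraries. The difference between these fractions is therefore a description for all 10 genes, and no test is drawn from it. All 10 passed the filter on low counts and were among the 17344 genes fitted.

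The cells came from the esophageal epithelium of C57BL6 mice aged 14 to 15 weeks, with no genetic change or drug named in the labels. Single cells were stained for integrin beta-1, a surface receptor of basal keratinocytes, with DAPI, which enters dead cells, and with Cyto-ID, a dye that collects in the vesicles of autophagy. Live integrin beta-1 positive cells were sorted into a Cyto-ID Low and a Cyto-ID High population, and bulk RNA-seq was made from both. Each fraction has 4 libraries, named Female1, Female2, Male1 and Male2 after the animals, of which each gave both fractions. Both fractions thus share strain, age, tissue and gate, and were parted by the dye.

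Phospholipases A2 cut the fatty acid from the sn-2 position of a glycerophospholipid, which releases a free fatty acid and a lysophospholipid. Pla2g4a, known as cPLA2 alpha, is the best known source of free arachidonic acid, from which cyclooxygenases and lipoxygenases make prostaglandins, leukotrienes and hydroxy fatty acids. In stratified epithelia, secreted and cytosolic phospholipases A2 of the upper layers also take part in remodelling lipids as keratinocytes differentiate. Pla2g4e is an exception within its group, since it acts as a calcium-dependent N-acyltransferase that makes precursors of N-acylethanolamines.

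The enzymes fall into chemically distinct kinds, which can be read from the coding sequence around a catalytic residue. Secreted enzymes use a catalytic histidine, which lies in a stretch of cysteine, cysteine, any pair of residues, histidine and aspartate, and the aspartate next to it binds calcium. This stretch was found once in each of the 3 secreted members, at codons 105 to 110 of Pla2g2f, 176 to 181 of Pla2g3 and 109 to 114 of Pla2g12a (GENCODE M21, GRCm38). The coding strand is shown 5′ to 3′ with the codons of the stretch in capitals, so that the kinds can be compared.
Pla2g2f: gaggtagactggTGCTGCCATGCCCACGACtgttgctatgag
Pla2g3: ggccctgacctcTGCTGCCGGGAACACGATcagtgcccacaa
Pla2g12a: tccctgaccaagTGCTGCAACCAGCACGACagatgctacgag
Cytosolic group IV enzymes and Pla2g6 use a serine and an aspartate instead, and the serine sits close to glycines. In the sequences that follow, the capitals mark the codons for glycine, any residue, serine, glycine and serine in the group IV genes, and for glycine, any residue, serine, any residue and glycine in Pla2g6.
Pla2g4a: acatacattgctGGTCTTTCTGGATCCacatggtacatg
Pla2g4b: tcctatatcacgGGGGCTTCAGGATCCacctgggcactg
Pla2g4d: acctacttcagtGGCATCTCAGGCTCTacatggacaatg
Pla2g4f: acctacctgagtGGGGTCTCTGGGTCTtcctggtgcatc
Pla2g6: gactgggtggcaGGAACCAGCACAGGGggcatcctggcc
These stretches start at codon 226 of Pla2g4a, 340 of Pla2g4b, 368 of Pla2g4d, 391 of Pla2g4f and 518 of Pla2g6. The serine patterns matched once more at codon 406 in Pla2g4a and at codon 576 in Pla2g4d, and neither was matched in the coding sequences of Pla2g4e and Pla2g15. The coding sequences of the group IV genes were 59.7% to 64.1% identical over aligned bases. No word of 50 bases was shared between the transcripts of any pair of the 10 genes.

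Of the 3 secreted enzymes, Pla2g3 and Pla2g2f gave the widest differences between the fractions among the members, and Pla2g12a one of the smallest. Pla2g3, the group III enzyme (ENSMUSG00000034579.17, chromosome 11, 3488284 to 3499350, plus strand, GRCm38), had 1.82, 4.51, 0.994 and 7.03 CPM (counts-per-million, after TMM scaling of the library sizes) in the Low libraries of Female1, Female2, Male1 and Male2. In the High libraries of the same animals it had 53.5, 89.4, 65.5 and 100 CPM. Every High library lay above every Low library, and Male2 was the highest in both fractions. The means were 3.59 ± 2.74 and 77.1 ± 21.4 CPM (SD, n = 4 each), a fitted log2 fold change of 4.42 with a standard error (SE) of 0.54, or 21.5-fold, which ranked 18 among the 17344 genes. The raw counts of Pla2g3 were 32 to 233 in Low and 1386 to 2053 in High.

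Exons of Pla2g3 overlap the antisense gene Inpp5j, a phosphoinositide phosphatase, over 401 bases or 8.54% of their length. Whether the counting used strand is not given in the sources used here, so reads in that stretch could belong to either gene. Inpp5j itself had 50 to 68 counts in the Low and 70 to 121 in the High libraries. These lie close to the Pla2g3 counts of 59 in Low Female1 and 32 in Low Male1, and far below those in High.

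Pla2g2f, the group IIF enzyme of differentiating keratinocytes in skin (ENSMUSG00000028749.7, chromosome 4, 138750533 to 138757626, minus strand), had 4.63, 8.39, 1.43 and 12.5 CPM in Low and 103, 129, 107 and 154 CPM in High, in the same order of animals. Both fractions were again fully apart, with Male2 on top in each. The means were 6.74 ± 4.78 and 123 ± 23.6 CPM (SD, n = 4 each), and the fitted log2 fold change was 4.19 (SE 0.54), or 18.2-fold.

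The spread between animals lay in the Low fraction, where the highest library had 8.75 times the lowest CPM for Pla2g2f and 7.08 times for Pla2g3, against 1.5 and 1.87 times in High. Per animal, the log2 difference ran from 3.61 in Male2 to 6.15 in Male1 for Pla2g2f and from 3.82 to 5.95 in the same animals for Pla2g3. Leaving out Low Male2 raised the fitted log2 fold changes to 4.90 for Pla2g2f and 5.08 for Pla2g3.

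The third secreted enzyme, Pla2g12a of group XII (ENSMUSG00000027999.15, chromosome 3, 129878606 to 129895825, plus strand), kept to one range. It had 10.1, 16.2, 13 and 18.4 CPM in Low and 12.2, 21.6, 12.6 and 22.5 CPM in High, with Female2 and Male2 above Female1 and Male1 in both fractions. The fitted log2 fold change was 0.26 (SE 0.26), from 14.4 ± 3.64 to 17.2 ± 5.57 CPM (SD, n = 4 each), and the fractions overlapped. Its sign turned, to −0.34, when libraries were scaled by total counts alone, and each animal then had less in High.

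Among the cytosolic enzymes, Pla2g4e and Pla2g4f were the most abundant per length in High, and both stood several-fold higher in High. Pla2g4e, the N-acyltransferase (ENSMUSG00000050211.14, chromosome 2, 120166412 to 120245335, minus strand), had 66.2, 45, 32.2 and 59.9 CPM in Low and 356, 444, 457 and 576 CPM in High. All 4 High libraries were above all Low libraries. The means were 50.8 ± 15.3 and 458 ± 90.3 CPM (SD, n = 4 each), with a fitted log2 fold change of 3.17 (SE 0.27), or 8.98-fold.

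Pla2g4f (ENSMUSG00000046971.7, chromosome 2, 120299957 to 120314165, minus strand), which lies close to Pla2g4e in the genome, had 66.8, 63.3, 48.8 and 67.3 CPM in Low and 353, 425, 437 and 566 CPM in High. Male2 was highest and Female1 lowest in High for both genes, and Male1 was lowest in Low for both. By total counts alone Male1 was highest in High for both, at 409 CPM against 391 in Male2 for Pla2g4e and 391 against 384 for Pla2g4f. The means of Pla2g4f were 61.6 ± 8.68 and 445 ± 89 CPM (SD, n = 4 each), and its fitted log2 fold change was 2.85 (SE 0.20), or 7.19-fold.

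Pla2g4d (ENSMUSG00000070719.4, chromosome 2, 120265595 to 120289197, minus strand) lies between them and showed a smaller difference. It had 8.83, 7.51, 4.82 and 5.92 CPM in Low and 20.7, 12.1, 11.6 and 6.84 CPM in High. High Male2 fell inside the Low range, so the fractions overlapped, although each animal had more in High than in Low. By total counts alone this held in 2 of the 4 animals, while Female2 had 9.78 CPM in Low and 9.54 in High, and Male2 6.85 and 4.64. The fitted log2 fold change was 0.90 (SE 0.23), from 6.77 ± 1.77 to 12.8 ± 5.78 CPM (SD, n = 4 each). Scaling by total counts alone reduced it to 0.38 and ended the call.

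Pla2g4b (ENSMUSG00000098488.7, chromosome 2, 120033417 to 120043030, plus strand), on the same chromosome, was low throughout. It had 1.48, 1.51, 1.46 and 1.15 CPM in Low and 6.87, 8.62, 9.30 and 7.36 CPM in High. The fractions were fully apart, with means of 1.4 ± 0.17 and 8.04 ± 1.12 CPM (SD, n = 4 each) and a fitted log2 fold change of 2.52 (SE 0.21), or 5.73-fold.

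The Pla2g4b values are uncertain, because 66.5% of the exon length lies also in the same-strand gene Gm28042, which had 0 to 6 counts in the libraries, and 13.6% lies opposite exons of Sptbn5. Sptbn5, a beta spectrin, rose by 3.89 (log2 scale, SE 0.28, adjusted p 1.37e-05 by edgeR), with a mean of 3.4 ± 1.24 CPM in Low and 51.7 ± 14.4 CPM in High (SD, n = 4 each), and had 896 to 1724 counts in High. The part of reads from Sptbn5 and Gm28042 in the Pla2g4b counts was not tested.

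Pla2g4a, cPLA2 alpha itself (ENSMUSG00000056220.14, chromosome 1, 149829618 to 149961290, minus strand), stood the other way round from Pla2g4e and Pla2g4f. It had 44, 47.4, 52 and 41.8 CPM in Low and 12.4, 22.2, 14 and 16.9 CPM in High. The lowest Low library lay well above the highest High library. The means were 46.3 ± 4.43 and 16.4 ± 4.29 CPM (SD, n = 4 each), and the fitted log2 fold change was −1.50 (SE 0.19). The log2 difference was negative in all 4 animals, from −1.89 in Male1 to −1.09 in Female2.

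**Figure D1:**
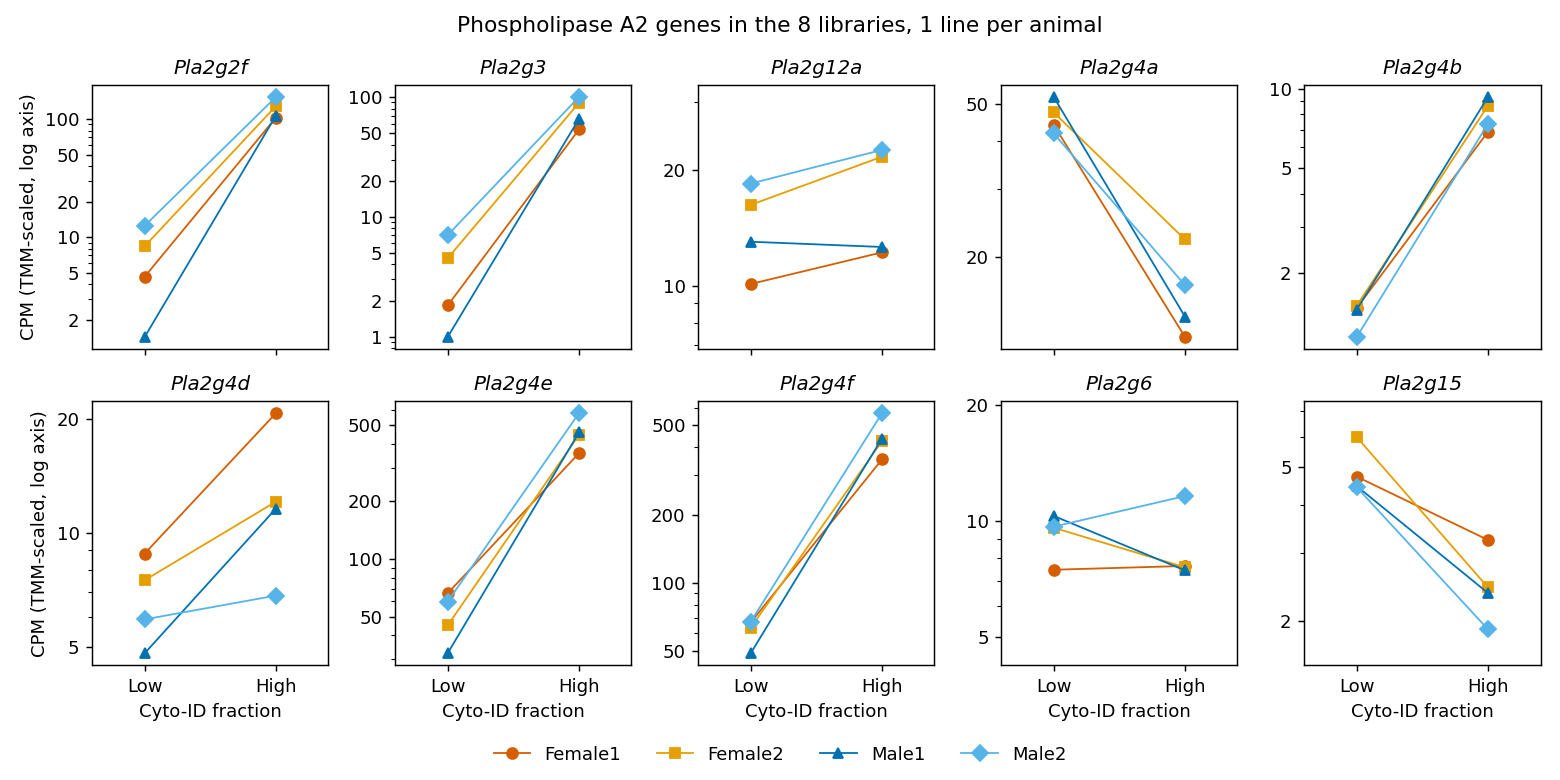
Each panel plots 1 phospholipase A2 gene in CPM on a log axis of its own, with the Low and the High library of an animal joined by a line, and the vertical scales differ between panels. The lines of Pla2g2f, Pla2g3, Pla2g4b, Pla2g4e and Pla2g4f run steeply up between non-overlapping fractions, those of Pla2g4a and Pla2g15 run down, and those of Pla2g6 and Pla2g12a stay within one range.

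The calcium-independent and the lysosomal enzyme were counted sparsely. Pla2g6, which takes part in membrane remodelling (ENSMUSG00000042632.17, chromosome 15, 79286228 to 79328390, minus strand), had 7.47, 9.60, 10.3 and 9.66 CPM in Low and 7.64, 7.58, 7.44 and 11.6 CPM in High. High Male2 was above the other 3 High libraries, and the fractions overlapped. The fitted log2 fold change was −0.12 (SE 0.18), from 9.26 ± 1.23 to 8.56 ± 2.01 CPM (SD, n = 4 each). With scaling by total counts alone it was −0.70, which passed the threshold, and the fractions did not overlap, with High Male2 at 7.86 CPM close above High Female1 at 7.2.

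Pla2g15, the lysosomal phospholipase A2, which acts at acid pH (ENSMUSG00000031903.7, chromosome 8, 106150399 to 106164715, plus strand), had 4.73, 5.99, 4.47 and 4.44 CPM in Low and 3.24, 2.44, 2.36 and 1.90 CPM in High. All 4 High libraries lay below all Low libraries, and Male2 was lowest in both fractions. The fitted log2 fold change was −0.98 (SE 0.21), from 4.91 ± 0.735 to 2.49 ± 0.556 CPM (SD, n = 4 each).

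In counts, 6 of the 10 members passed an adjusted p of 0.05 as higher in High (Pla2g2f, Pla2g3, Pla2g4b, Pla2g4d, Pla2g4e and Pla2g4f), 2 as lower (Pla2g4a and Pla2g15) and 2 did not pass (edgeR's quasi-likelihood test, Benjamini-Hochberg adjustment over 17344 genes). Over all genes fitted, 23.4% passed as higher and 25.3% as lower. The fractions did not overlap in CPM for 5 members higher in High and 2 lower, where 48.6% of all genes fitted showed no overlap in either direction. Since the members were chosen with this contrast known, nothing is read from these counts. In bulk libraries, fewer cells of a type and less RNA per cell cannot be told apart for any of these values.

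**Figure D2:**
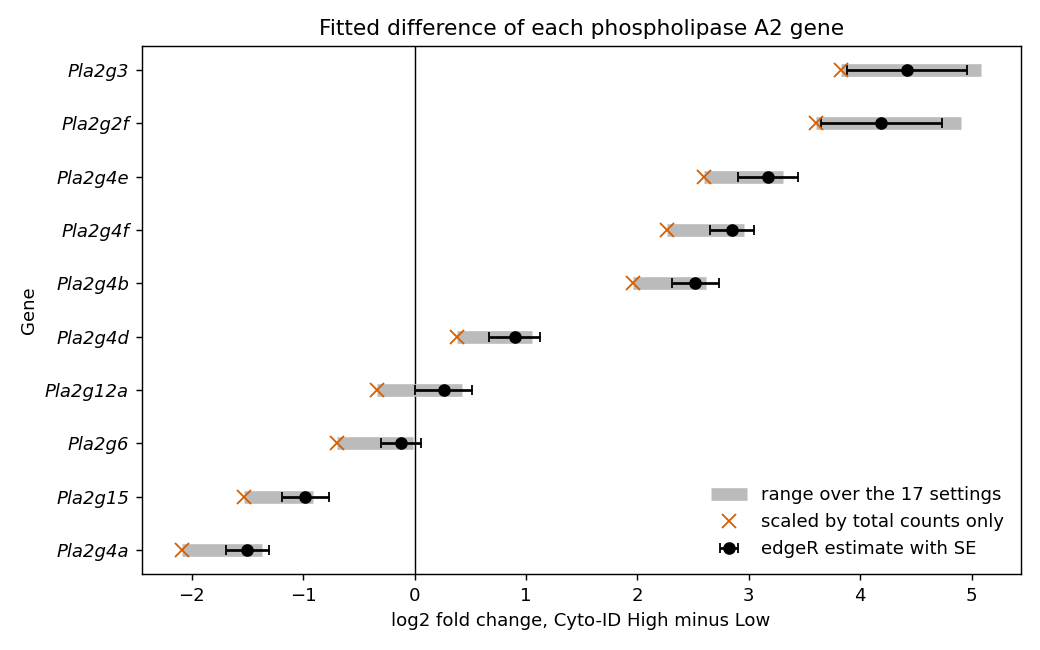
Points show the fitted log2 fold change of each gene, Cyto-ID High minus Low, with bars of 1 SE. Grey bands span all settings tried, and crosses mark scaling by total counts alone, which lies at the low end of each band and is on the other side of 0 from the point only for Pla2g12a (−0.34).

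The mix of phospholipases A2 differed between the fractions. Levels of different genes were compared as CPM per kilobase of merged exons (RPKM). Summed over the 10 members, the level was 46.6 ± 6.57 RPKM in Low and 286 ± 53.6 RPKM in High (SD, n = 4 each), with ranges of 37.3 to 52.8 and 229 to 358. Pla2g4f led in both fractions, at 19.2 ± 2.71 and 139 ± 27.8 RPKM.

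In Low, the levels after Pla2g4f were those of Pla2g4e at 7.3 ± 2.19, Pla2g4a at 7.24 ± 0.694, Pla2g12a at 3.91 ± 0.99, Pla2g2f at 2.73 ± 1.94, Pla2g4d at 1.84 ± 0.479, Pla2g6 at 1.7 ± 0.227, Pla2g15 at 1.63 ± 0.244, Pla2g3 at 0.764 ± 0.584 and Pla2g4b at 0.24 ± 0.0292 RPKM (SD, n = 4). Neighbours in this order were apart, in that the ranges of their 4 libraries did not overlap, only between Pla2g4f and Pla2g4e and between Pla2g4a and Pla2g12a. With the longest transcript in place of merged exons as the length, Pla2g4a at 13.4 RPKM stood above Pla2g4e at 11.3.

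In High, Pla2g4e followed at 65.8 ± 13, Pla2g2f at 50 ± 9.56, Pla2g3 at 16.4 ± 4.55, Pla2g12a at 4.68 ± 1.51, Pla2g4d at 3.47 ± 1.57, Pla2g4a at 2.56 ± 0.671, Pla2g6 at 1.57 ± 0.371, Pla2g4b at 1.38 ± 0.192 and Pla2g15 at 0.825 ± 0.185 RPKM (SD, n = 4). Here Pla2g4f, Pla2g2f, Pla2g3 and Pla2g4b were each apart from the next gene below. For Pla2g4b this and its place in both orders are uncertain, since 66.5% of its exon length lies also in Gm28042. Pla2g3 thus stood at rank 9 in Low and rank 4 in High, and Pla2g4a at rank 3 and rank 7. With the longest transcript as the length, Pla2g4a stood at rank 2 and, at 4.74 RPKM in High, above Pla2g4d at rank 6, while Pla2g3 kept its ranks, at 26.9 RPKM in High, and Pla2g4e had 102 RPKM there.

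As shares of the summed level, Pla2g4e and Pla2g4f together made up 56.7% ± 4.65 in Low and 71.6% ± 2.29 in High (SD, n = 4 each). Pla2g2f and Pla2g3 together made up 7.06% ± 4.55 and 23.2% ± 1.64, and Pla2g4a 16% ± 4.07 and 0.902% ± 0.217. The level of Pla2g4e was 1.03 ± 0.382 times that of Pla2g4a in Low and 26.5 ± 5.8 times in High. With the longest transcript as the length, a setting added after the data were seen, the share of Pla2g4a was 22.8% ± 5.32 in Low and 1.4% ± 0.33 in High (SD, n = 4 each). The shares of the 4 High libraries lay close together, while among the Low libraries the share of Pla2g2f and Pla2g3 ran from 2.12% to 12.4%.

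**Figure D3:**
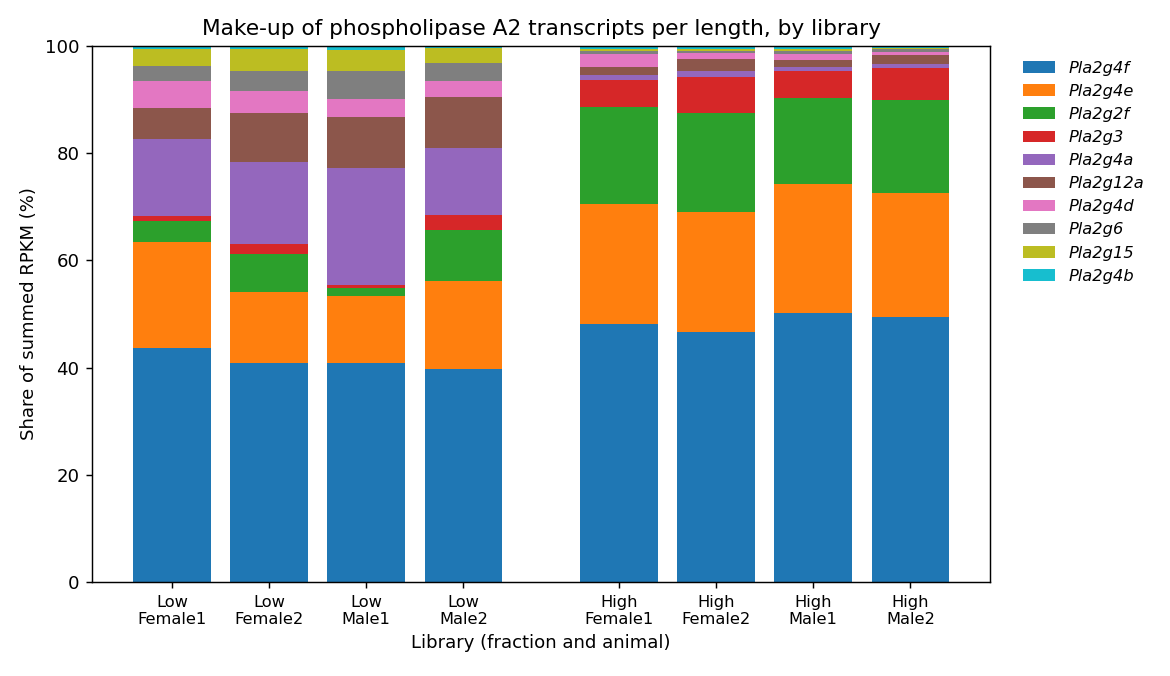
Each bar splits the summed RPKM of the 10 genes in 1 library into percent shares. Pla2g4f and Pla2g4e fill at least 53.3% of every bar, Pla2g4a is a broad band in the Low and a thin one in the High libraries, and Pla2g2f with Pla2g3 takes 21.1% to 25.1% in High.

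Markers of the epithelial layers moved along with the members. Of 9 tested suprabasal keratinocyte markers, 8 were higher in High and 1, Krt6a, did not pass, with a median log2 fold change of 3.10 against −0.09 over all genes fitted. The summed level of the 10 listed markers was 10325 to 26965 CPM in Low and 139834 to 238742 CPM in High. All 10 basal keratinocyte markers were lower in High, with a median of −2.63, led by Col17a1 (−3.86) and Itgb4 (−3.62), a collagen and an integrin of hemidesmosomes. Krt4, a keratin of the esophageal suprabasal layers, rose from 6295 ± 3578 to 85156 ± 24001 CPM (SD, n = 4 each), and Itgb1, the sorting marker itself, had 323 to 390 CPM in Low and 51.8 to 92.2 CPM in High. The part of this shift in layer markers in the values of the phospholipases A2 was not tested.

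Within a fraction, Pla2g2f and Pla2g3 ranked the libraries alike, and in the same order as some of the suprabasal markers. In Low, Pla2g2f, Pla2g3, Krt4 and Krt13 all ran from Male2 through Female2 and Female1 down to Male1, with Krt4 at 10616, 7629, 4461 and 2474 CPM and Krt13 at 11243, 8942, 6100 and 4821 CPM. Over the suprabasal list, 6 of the 9 tested markers had this order in Low, namely Krt4, Krt13, Sbsn, Tgm3, Cnfn and Krtdap. The other 3 did not: Krt6a at 1665 CPM and Ivl at 14.9 CPM were highest in Low Female1, and Tgm1 at 321 CPM was lowest in Low Female2. The secreted Pla2g12a had Male1 above Female1 in Low, and in High the order of Pla2g3. In High Pla2g2f, Pla2g3, Krt4 and Krt13 ran from Male2 through Female2 and Male1 down to Female1, an order that 4 of the 9 markers had. For these 4 genes the order in Low held under scaling by total counts alone, but in High that scaling put Female2 above Male2 for Pla2g3 and Female1 above Male1 for the other 3 genes, and by total counts 5 of the 9 markers shared the order of Pla2g3 in Low and 0 in High. Pla2g4e and Pla2g4f did not follow this order in Low, where Female1 ranked above Female2 for both, by total counts only for Pla2g4e.

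**Figure D4:**
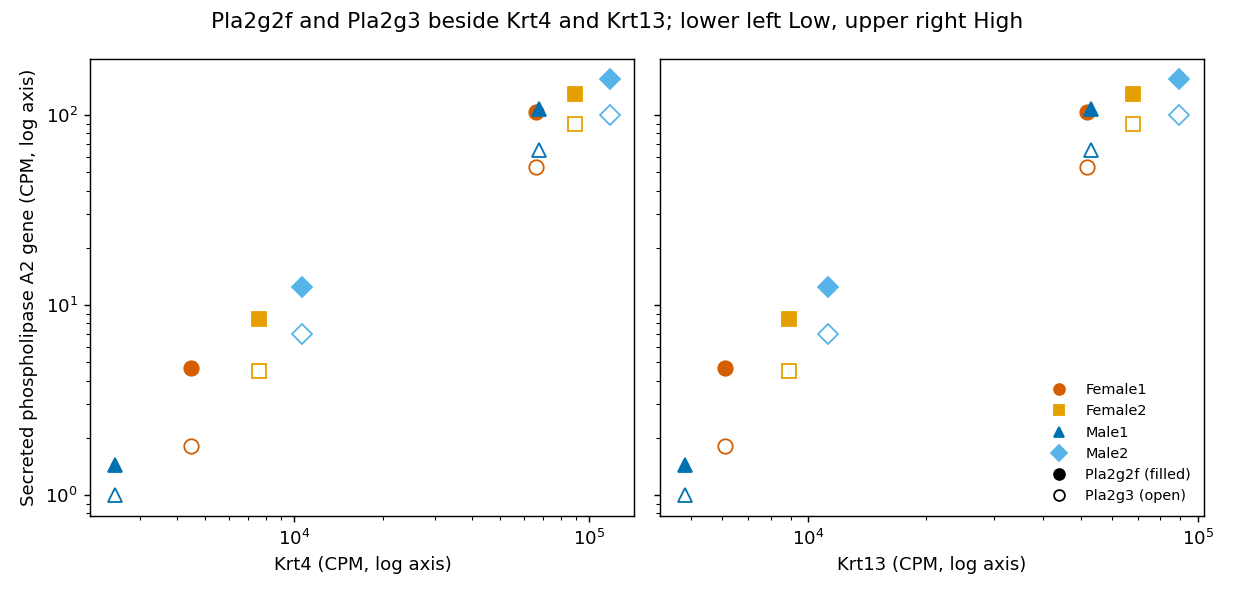
Each point is 1 library, with Krt4 or Krt13 in CPM on the horizontal and Pla2g2f (filled) or Pla2g3 (open) in CPM on the vertical axis, both on log scales. The Low libraries at the lower left are spread along a rising line, for Pla2g3 from Male1 at 0.994 CPM to Male2 at 7.03, and the High libraries at the upper right lie closer together.

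Markers of other cell types were read for the same libraries, since secreted phospholipases such as Pla2g3 are also known from mast cells. None of the 8 tested mast cell markers passed (edgeR, median log2 fold change −0.04), and leaving out 1 library moved that median from −0.69 without High Male1 to 0.28 without High Male2. The medians of the leukocyte, fibroblast, endothelial and muscle markers moved likewise with High Male1 and High Male2, from −0.89, −1.12, −0.93 and −0.93 without the former to 0.17, −0.04, −0.04 and 0.22 without the latter. Of the mast cell markers, the 10 listed summed to 9.26 to 17.9 CPM in Low and 1.29 to 23.9 CPM in High. The lowest value, with 3 of the 10 markers at 0, was in High Male2. Leukocyte markers, 1 of 9 higher (Cd52) and 1 lower, summed to 55.9 to 92.6 CPM in Low and 10.3 to 94.2 in High, and fibroblast markers, 0 of 10 higher and 1 lower (Dcn, decorin), to 350 to 578 CPM in Low and 48.5 to 525 CPM in High, both lowest in High Male2. The call of Cd52 was lost by total counts alone and without High Female1, High Male1, Low Female2 or Low Male1. None of 10 endothelial markers passed. By total counts alone, without a covariate, without a filter or without High Female1, 1 of them passed as lower. Of 10 muscle markers 1, Acta2, passed as lower, a call lost without Low Female1, Low Male1 or Low Male2. Gastric markers summed to at most 1.39 CPM except in Female2, with 19.8 CPM in Low and 117 in High. The part of these cell types in the values of the phospholipases A2 was not tested.

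Genes whose profiles over the 8 libraries lay nearest to Pla2g3 were found by the root mean square distance of log2 CPM, each centred on its own mean, among 9999 genes with a mean of at least 5 CPM. The nearest were Ano2, a calcium-activated chloride channel, at 0.19, Rnase1 at 0.20, Slc46a2 at 0.21, and Dlg2 and Slc6a19 at 0.23 each, where the profile of Pla2g3 itself had a root mean square of 2.49. The nearest member, Pla2g2f at 0.25, would rank 9, and Pla2g4e at 1.01 would rank 247. Profiles were also centred within each fraction, which leaves only the differences among the libraries of a fraction. The nearest to Pla2g3 then were Acox2 at 0.12, Dlg2 at 0.16, and Ano2, Gsdma and Gng4 at 0.18 each, against 0.80 for Pla2g3 itself. Pla2g2f at 0.23 would rank 20 there.

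For Pla2g4a, the member with the lowest fold change, the nearest profiles were Wdr19 at 0.13, Tdp1 at 0.14, and Hmgb1, Ugdh and Chpt1 at 0.15 each, against its own root mean square of 0.80. Centred within each fraction they were Lancl2 at 0.04, Dnajc19 at 0.05, and Pbx3, Tmem218 and Setdb2 at 0.07 each, where that of Pla2g4a was 0.24. These distances describe 8 libraries that share 4 animals.

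On chromosome 2, Pla2g4e, Pla2g4d and Pla2g4f follow each other on the minus strand. The gap was 20.3 kb between Pla2g4e and Pla2g4d and 10.8 kb between Pla2g4d and Pla2g4f. On one side, 11.8 kb from Pla2g4e, lies Ehd4, an endocytic protein, which rose from 67 ± 10.3 to 179 ± 34.4 CPM (log2 fold change 1.42, SE 0.18, edgeR adjusted p 0.00018). On the other side, 2.3 kb from Pla2g4f, lies Vps39, a subunit of a tethering complex of late endosomes and lysosomes, at 38.4 ± 3.51 and 33 ± 3.98 CPM (log2 fold change −0.22, SE 0.14, edgeR adjusted p 0.227). By total counts alone Vps39 passed as lower, at −0.79. Both flanking genes thus had smaller fitted differences than Pla2g4e and Pla2g4f. Gm13997, whose exons share 153 bases or 2.2% of the exon length of Pla2g4e on the same strand, had 0 to 1 counts.

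The neighbours of the other members moved in both directions. Beside Pla2g12a, Casp6, a caspase, fell from 23.7 ± 3.99 to 4.1 ± 1.39 CPM (log2 fold change −2.55, SE 0.24, edgeR adjusted p 3.28e-05), and Cfi, complement factor I, had 0 to 18 counts. Beside Pla2g15, Slc7a6, an amino acid transporter, fell by 2.53 (SE 0.19, adjusted p 1.52e-05) and Esrp2, a splicing regulator of epithelia, rose by 1.35 (SE 0.19, adjusted p 0.000311). Beside Pla2g6, Baiap2l2 rose by 1.09 (SE 0.24, adjusted p 0.00422) and Maff, a small MAF transcription factor, by 0.67 (SE 0.23, adjusted p 0.0353), a call lost without Low Female2 (0.51) and in 4 other leave-one-library-out fits. Beside Pla2g3, Rnf185, a ubiquitin ligase, rose by 0.63 (SE 0.14, adjusted p 0.00389) and Inpp5j by 1.28 (SE 0.21, adjusted p 0.000743). By total counts alone Rnf185 (0.06), Baiap2l2 (0.51) and Maff (0.10) did not pass. Brinp3, on the other side of Pla2g4a, had 0 to 8 counts.

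Promoter windows of 300 bases, 250 before and 50 after the annotated start, were found for 8 of the 10 members in RefSeq (GRCm38.p6). Those of the 3 members with the highest levels per length in High are printed on the strand of the gene, since these members stood higher together.
Pla2g2f, chr4:138757549-138757848, minus strand: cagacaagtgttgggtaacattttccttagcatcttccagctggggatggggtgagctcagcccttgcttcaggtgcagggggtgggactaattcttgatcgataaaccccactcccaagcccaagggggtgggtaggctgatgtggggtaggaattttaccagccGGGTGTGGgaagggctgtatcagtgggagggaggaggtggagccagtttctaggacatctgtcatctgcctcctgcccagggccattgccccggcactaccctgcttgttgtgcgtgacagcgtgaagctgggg
Pla2g4e, chr2:120245286-120245585, minus strand: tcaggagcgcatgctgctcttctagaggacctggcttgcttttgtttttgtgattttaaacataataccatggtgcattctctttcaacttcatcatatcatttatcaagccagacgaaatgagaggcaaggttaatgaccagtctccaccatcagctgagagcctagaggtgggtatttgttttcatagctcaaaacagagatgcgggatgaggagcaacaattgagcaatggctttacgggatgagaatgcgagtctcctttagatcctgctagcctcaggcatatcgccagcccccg
Pla2g4f, chr2:120314116-120314415, minus strand: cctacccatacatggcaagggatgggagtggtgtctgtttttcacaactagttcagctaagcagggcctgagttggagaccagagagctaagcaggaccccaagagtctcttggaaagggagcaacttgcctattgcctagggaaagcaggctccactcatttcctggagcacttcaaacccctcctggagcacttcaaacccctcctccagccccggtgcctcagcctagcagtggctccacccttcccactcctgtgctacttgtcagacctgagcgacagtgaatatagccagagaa
The capitals mark GGGTGTGG, a motif bound by Krüppel-like factors, which begins at position −84 from the start of Pla2g2f. Pla2g4a had 2 windows, and both strands of all 9 windows were searched for TGANTCA (AP-1), TCACGTG (MiT/TFE factors), CACGTG (E-box, contained in the former), AACCGGTT (grainyhead-like factors) and GGGTGTGG, and this was the only match. Among 32851 promoter windows, 7.81% held TGANTCA, 3.77% TCACGTG, 7.15% CACGTG, 0.146% AACCGGTT and 3.56% GGGTGTGG.

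Sex was a comparison that did not enter the choice of the genes. With the counts of both fractions summed per animal, none of the 10 members passed in males against females, 2 animals each, by edgeR's quasi-likelihood test with Benjamini-Hochberg adjustment over 19687 genes, where 4 genes or 0.0203% of all tested passed. The fitted log2 differences, male minus female, ran from −0.76 for Pla2g4d to 0.23 for Pla2g4e and Pla2g4f. Pla2g4d had 823 and 550 counts in the female and 460 and 329 in the male animals (SE 0.28), and it was the only member with an unadjusted p under 0.05 (edgeR p 0.0243, adjusted p 1). Over all 19687 genes tested, 284 had an unadjusted p under 0.05 by edgeR in this comparison. In summed counts of Pla2g4d both males were below both females. In the High libraries by total counts alone, Male1 at 10.4 CPM was above Female2 at 9.54.

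The interaction of sex and fraction passed for 0 of the 10 members and for 0% of the 17344 genes (edgeR's quasi-likelihood test), with 19 genes at an unadjusted p under 0.05, none of them a member, and for 0 by DESeq2 with 5 unadjusted. The member estimates ran from −0.22 for Pla2g4d to 0.64 for Pla2g4e (SE 0.50 and 0.49). These come from a fit that did not use the pairing of the fractions by animal. With the animal as a replicate block, 0 genes passed. The estimates then were 0.57 for Pla2g2f, against 0.07, and 0.20 for Pla2g3, against −0.13. Without the block, the estimates moved widely when 1 library was left out. Without Low Male2 the estimate was 2.32 for Pla2g2f, 1.87 for Pla2g3 and 1.10 for Pla2g4e. Without Low Male1 it was −0.86 for Pla2g2f, and without Low Female2 it was −1.07 for Pla2g3. The SE of the interaction over all libraries, without the block, was 1.05 for Pla2g2f and 1.04 for Pla2g3. Only a dependence of the fraction difference on sex several times that size could have passed in these secreted enzymes.

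The other genes of the pathway were taken from lists by role and read from the same fit. Of 24 further phospholipases A2, relatives and receptors, 13 could be tested, of which 7 were higher and 2 lower in High (median log2 fold change 0.56). Pnpla1, a transacylase of epidermal acylceramide synthesis, rose from 9.39 ± 3.48 to 97.8 ± 18.2 CPM (log2 fold change 3.38, SE 0.29, edgeR adjusted p 2.11e-05), and Plaat3, a small phospholipase of adipose tissue, from 2.19 ± 0.707 to 14 ± 1.79 CPM (2.67, SE 0.26, adjusted p 3.87e-05). Pla2r1, a receptor that binds secreted phospholipases A2, fell from 7.46 ± 0.437 to 1.67 ± 0.247 CPM (−2.16, SE 0.19, adjusted p 2.34e-05). Pafah1b2, a subunit of an acetylhydrolase of platelet-activating factor, fell (−0.45, SE 0.15, adjusted p 0.0309), a call that was lost when any of 6 libraries was left out. The remaining secreted enzymes were barely counted, with at most 14 counts in any library for Pla2g1b, Pla2g2c, Pla2g2d, Pla2g2e, Pla2g5, Pla2g10 and Pla2g12b and 0 for Pla2g2a.

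Genes that handle the products had members on either side. The list for lysophospholipid removal also holds Liph, a phospholipase that makes lysophosphatidic acid, so it does not describe removal alone. Of its 14 genes, 8 were higher and 1 lower (median 0.57). Leaving out High Female2, High Male2 or Low Male1 gave 6 higher, and leaving out Low Female1 gave 7. The largest rises were those of Gdpd1, a lysophospholipase D, from 9.53 ± 4.25 to 114 ± 20.6 CPM (log2 fold change 3.58, SE 0.35, edgeR adjusted p 3.36e-05), and Liph (3.46, SE 0.30, adjusted p 2.11e-05). For reacylation, 10 of 19 were higher and 3 lower (median 0.54). Mboat2, an acyltransferase, and Acsl1, a fatty acid activating enzyme, rose by 3.64 (SE 0.33, adjusted p 2.64e-05) and 3.45 (SE 0.34, adjusted p 3.65e-05). Acsl4, which prefers arachidonic acid, fell from 85.3 ± 10.3 to 20.4 ± 1.82 CPM (−2.06, SE 0.14, adjusted p 1.33e-05), and Agpat4 fell as well (−1.93, SE 0.37, adjusted p 0.0019).

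Among 17 tested genes of arachidonate oxidation, 5 were higher and 4 lower, with a median of 0.03. Alox12b, a lipoxygenase of the epidermal barrier, rose from 70.8 ± 48.1 to 1276 ± 304 CPM (log2 fold change 4.17, SE 0.57, edgeR adjusted p 0.000232), and the lipoxygenase Alox12 from 5.12 ± 2.88 to 76.1 ± 18.3 CPM (3.89, SE 0.39, adjusted p 4.2e-05). Ptgs2, the inducible cyclooxygenase and a genomic neighbour of Pla2g4a at 138.7 kb, had 252, 108, 291 and 148 CPM in Low and 28.6, 18.8, 16.5 and 20.4 CPM in High, and fell by 3.25 (log2 scale, SE 0.34, adjusted p 5.63e-05). Alox5, the lipoxygenase of leukotriene synthesis, fell from 1.96 ± 0.132 to 0.466 ± 0.242 CPM (−2.06, SE 0.43, adjusted p 0.00314). Ptgs1, the constitutive cyclooxygenase, which was named after its values were seen, rose by 1.03 (SE 0.15, adjusted p 0.000438).

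Of 8 genes that regulate cytosolic phospholipase A2, 4 were higher and 1 lower (median 0.62). Mapk3, a kinase that phosphorylates Pla2g4a, and Cerk, which makes its activator ceramide-1-phosphate, rose by 1.51 (SE 0.21, edgeR adjusted p 0.000245) and 1.28 (SE 0.18, adjusted p 0.000311), and S100a10, a partner of annexin A2, fell (−0.86, SE 0.19, adjusted p 0.00364). Of 5 tested receptors for lysophosphatidic acid, Lpar5 (1.97, SE 0.19, adjusted p 3.7e-05) and Lpar3 (1.30, SE 0.28, adjusted p 0.00396) were higher and Lpar6 (−0.89, SE 0.23, adjusted p 0.00943) was lower, with a median of −0.60 that turned to 0.31 when at least 10 counts were asked in every library, which left 4 of them. Leaving out 1 library moved this median between −0.77 without Low Female1 and −0.20 without Low Male2, with −0.31 without High Male2, −0.33 without Low Female2 and −0.44 without High Female1. The 4 genes of N-acylethanolamine metabolism gave 2 higher, Naaa (0.73, SE 0.16, adjusted p 0.00365) and Gde1 (0.67, SE 0.13, adjusted p 0.00234), and 1 lower, with a median of 0.46. The lower one, Napepld, was named after its values were seen and had 0.994 ± 0.198 CPM in Low and 0.44 ± 0.128 in High (SD, n = 4 each). Its call was lost when High Female1 or Low Male1 was left out.

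The medians of these lists moved with the scaling. By total counts alone the median over all genes fitted shifted by −0.55 on the log2 scale, and the list medians became 0.00 for the further phospholipases A2, −0.01 for lysophospholipid removal, −0.03 for reacylation, −0.53 for arachidonate oxidation, 0.06 for the regulators, −1.18 for the lysophosphatidic acid receptors and −0.09 for the N-acylethanolamine genes. The further phospholipases A2 then had 4 genes higher and 5 lower, lysophospholipid removal 5 and 3, reacylation 6 and 4, arachidonate oxidation 4 and 6, the regulators 3 and 3, and the lysophosphatidic acid receptors 2 and 2. Naaa and Gde1 no longer passed, which left the N-acylethanolamine genes with 0 higher and 1 lower.

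Both fractions came from the same animals, and with the animal as a replicate block 4 more listed genes passed by edgeR and none was lost. These, named after their values were seen, were Pla2g7, the plasma form of platelet-activating factor acetylhydrolase (edgeR adjusted p 0.0426, against 0.0979 without the block), Abhd4 (0.0479 against 0.309) and the receptor Lpar2 (0.0109 against 0.0762), which were lower in High, and Anxa1, annexin A1 (0.0323 against 0.0761), which was higher. The block thus gave 5 regulators higher, and 3 further phospholipases A2, 2 genes of the lysophospholipid removal list and 2 lysophosphatidic acid receptors lower.

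All libraries were of like depth, with 26285150 to 28599954 counts in Low and 27486049 to 29301054 in High. Genes with at least 1 count numbered 26282 to 28266 and 22208 to 27395, the lowest in High Male2. The thinnest value among the members was that of Pla2g3 in Low Male1, with 32 counts.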

How the data were processed

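The deposited table holds counts by gene symbol in 8 libraries. Its values are whole numbers whose totals differ among libraries, so they were taken as raw counts. Per the submitters' processing notes, STAR 2.7.3, DESeq2 and GRCm38 were used. The counting tool, the annotation and the strandedness are not given in the sources used here. Library names gave the animal and the fraction of every column.

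Counts were fitted in R 4.3.3 with edgeR 4.0.16 (filterByExpr, trimmed mean of M values or TMM, glmQLFit and glmQLFTest, sex as covariate), with Benjamini-Hochberg adjustment and a threshold of 0.05. Tests were two-sided. Log2 CPM used a prior count of 2. Same-named libraries come from 1 animal, since each cell suspension was sorted into both fractions. Their deviations from the fraction means correlated across genes at 0.433 (Female1), 0.316 (Female2), −0.016 (Male1) and 0.277 (Male2), against −0.372 to 0.35 between different animals, so the pairing rests on the names. Sex was tested on counts summed per animal, and its dependence on fraction as an interaction. RPKM used merged exons of GENCODE M21, in which 53388 of 55276 symbols were found.

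The members, lists and tests were chosen with earlier results of these data known, and the glycine, serine, glycine, serine pattern was added after the files were seen. Named were all members, up to 2 genes per list and direction with a mean of at least 1 CPM among those passed, genes that overlap or flank a member, and the 5 nearest profiles. Other genes, such as the suprabasal markers compared by library order, were named after their values were seen. The fits were tested on simulated counts. Alternatives were RLE size factors, total counts alone, no filter, at least 10 counts in every library, DESeq2 1.42.0, limma-voom (limma 3.58.1), a fit without covariate, the animal as replicate block, the longest transcript as length, and each library or animal left out.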

Additional observations from a re-analysis of the deposited data

Results flagged for a closer look

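In each fraction, the log2 CPM of every member and the summed CPM of all members were searched for a library far from the other 3, by Dixon's test at 95%. Of 22 groups of 4 libraries, 2 held such a library, where chance gives about 1 in 20. Pla2g4b was lowest in Low Male2, with a log2 CPM of 0.283, where the next library had 0.614 and the gap took 0.872 of the range. The raw counts there were 38, against 47 to 55 in the other Low libraries. Pla2g6 was highest in High Male2, with a log2 CPM of 3.54, where the next library had 2.95 and the gap took 0.939 of the range. Pla2g6 had 225 counts in that library and 174 to 198 in the other High libraries. Both rested on the scaling: by total counts alone, a check added after the data were seen, these gaps took 0.651 of the range for Pla2g4b and 0.321 for Pla2g6, under the critical value, while Pla2g4f in Low Male1 was then past it, at 0.847.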

How the results depend on the processing

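The 10 members gave 6 higher, 2 lower and 2 that did not pass in 15 of the 16 alternatives. Under scaling by total counts alone there were 5 higher and 3 lower, because Pla2g4d (0.38, edgeR adjusted p 0.298) did not pass and Pla2g6 (−0.70, adjusted p 0.00484) did. That scaling also moved the share of higher calls over all genes from 48% to 20.5%. Over all alternatives Pla2g3 ran from 3.83 to 5.08 and Pla2g4a from −2.09 to −1.37. With the animal as a replicate block, Pla2g3 was 4.65 and Pla2g4a −1.53, no member's call changed, and 9336 genes passed against 8440. Leaving out 1 library at a time gave 7269 to 8106 genes between the fractions.

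The 4 genes that differed between the sexes became 9 by DESeq2, 15 without a filter, 0 with the 4 High libraries alone and 1 with the 4 Low libraries alone. Leaving out 1 animal gave 6 to 48, with the most without Male1, 19 without Female1 and 16 without Male2, where 1 sex is a single animal assumed to vary like the pair of the other sex. No member passed for sex or the interaction in any alternative, which says nothing of stability where a sex or a sex in 1 fraction is left with 1 sample, and the interaction passed for 0 genes in all 13. With 2 animals per sex, only differences far above the spread could be seen. Of the 40 levels per length under another length or scaling, 15 moved by more than 1 SD. The cause of these changes was not tested.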
